A study of Mus musculus with 6 samples.

Results

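Aminoacyl-tRNA synthetases join each amino acid to its tRNA, and their transcripts were followed in fully grown mouse oocytes with and without Nat10. The synthetase genes were chosen by a rule on names that uses none of their values, though earlier results of these data were known. The rule took every symbol of one capital letter followed by ars, with or without a final 1, 2 or 3, together with Eprs, Ears2, Farsa, Farsb and Tarsl2. This gave 38 of the 25239 genes in the count table. Of these, 21 encode cytosolic enzymes, among them Gars and Kars, whose genes also make the mitochondrial enzyme, and 17 encode enzymes of mitochondria alone. All 38 had counts in every library and passed the filter on low counts, so no member is left out. Hars2 passed it only through its cKO libraries, as given below.

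Of the 6 libraries, 3 were made from oocytes of Gdf9-cre Nat10 conditional knockout females (cKO) and 3 from oocytes of females labelled WT, all collected 36 to 48 h after PMSG, a gonadotropin that makes follicles grow. Gdf9-cre acts in the oocyte from early follicle stages, so the surrounding cells keep the gene. The labels do not give the age of the mice, the number of oocytes per library, the cre or floxed status of the WT females, or whether separate animals gave the 3 libraries of each genotype. The p-values therefore measure the spread between libraries, which may be partly technical. Libraries followed the Smart-seq2 protocol, which copies whole poly(A) transcripts from very small samples.

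In textbook terms, the synthetases fall into 2 structural classes with unrelated catalytic folds. In animal cells 8 of the cytosolic ones gather on small scaffold proteins in a multisynthetase complex. Mitochondria use a separate, nuclear-encoded set whose names mostly end in 2. NAT10 acetylates cytidine in RNA, and with its adaptor THUMPD1 it acts on the tRNAs for serine and leucine, which makes the enzymes for those amino acids of particular interest here. Growing oocytes build up large stores of protein and mRNA, so charging of tRNA is in heavy use.

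Library totals ranged from 26288767 to 28623598 counts in cKO and from 20167665 to 29407659 in WT. Nat10 stood at 7.17, 7.64 and 7.98 CPM (the count scaled to a common library size) in cKO and at 48.0, 44.98 and 64.5 CPM in WT, which fits the labels. The 10 oocyte markers summed to between 28868 and 30429 CPM in cKO and between 25384 and 30046 CPM in WT. At an adjusted p below 0.05 (edgeR), 3 of these 10 were higher in cKO and 2 lower, where 20.1% of all tested genes went each way. Markers of granulosa and cumulus cells, 14 of 14 present, summed to 81.7 to 84.8 CPM in cKO and 99.7 to 104.7 CPM in WT. Of the 10 tested, 2 were lower and 0 higher, a share of falls near the 20.1% of all tested genes. None of the 14 was at 0 in all libraries. Their part in the results was not tested, and in such bulk samples fewer cells of a type and less RNA per cell cannot be told apart. The 6 stroma markers stayed at or below 3.67 CPM in sum and the 5 blood and immune markers at or below 0.667 CPM, with 2 of those 5 at 0 throughout.

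The synthetase transcripts moved in both directions, and their median stood where that of all genes did. Of the 38 genes, 7 rose, 7 fell and 24 were not called in cKO. A call needed a Benjamini-Hochberg adjusted p below 0.05, with edgeR's quasi-likelihood test run over the whole table. The 14 calls are 36.8% of the members, close to the 40.2% called over all 14114 tested genes, with 20.1% in each direction. The median log2 fold change of the members was 0.01 (interquartile range -0.37 to 0.35), and that of all tested genes was also 0.01. Libraries of the genotypes did not overlap in CPM for 17 members, 44.7% of them, against 52.0% of all tested genes. In 9 of these members all cKO libraries were higher and in 8 all were lower, where the share of all tested genes was 26.0% higher and 26.0% lower. By structural class, 3 of the 18 class I genes rose and 5 fell, and 4 of the 19 class II genes rose and 2 fell, with Eprs, which carries an enzyme of each class, not called. Folds of the members that fell ran from 53.4% to 73.4% of WT, and those that rose ran from 1.30-fold to 4.66-fold. Only 3 called members, all of them mitochondrial and higher, changed by at least 2-fold. They were Hars2, Iars2 and Yars2, with low means of 0.33, 4.82 and 3.84 CPM in WT. The share of all tested genes at that fold was not counted, so no trait of the mitochondrial genes is read from it.

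These folds compare each transcript with the rest of its library, not with an absolute amount. ERCC spike-in RNA took 0.340%, 0.420% and 0.430% of reads in cKO and 0.270%, 0.250% and 0.320% in WT. Scaled to it, the median log2 fold change was -0.39 for all genes and -0.38 for the synthetase genes. The sources give neither the amount of spike-in RNA added nor the number of oocytes per library. These scaled values are therefore an alternative and not a measured amount per oocyte. Under that scaling 1 member was called higher and 15 lower: all 7 that fell stayed lower, 8 more joined them, and of the 7 that rose Hars2 alone stayed higher. Hars2 was read from only 6, 8 and 8 counts in the WT libraries.

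**Figure D1:**
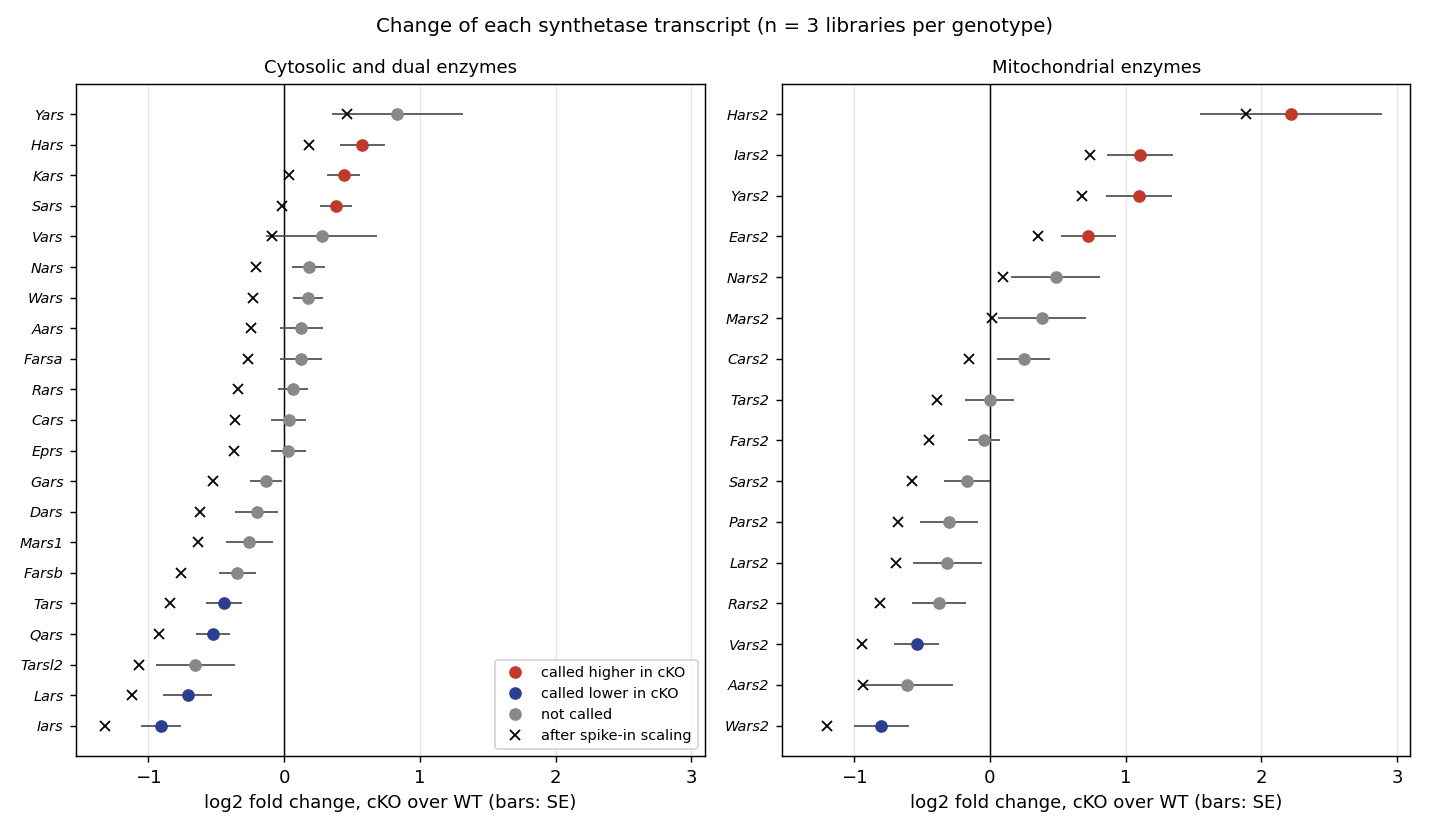
Log2 fold change of the synthetase transcripts reported by name, cKO over WT, with standard errors from edgeR's quasi-likelihood fit (n = 3 libraries per genotype), for cytosolic and dual enzymes (left) and mitochondrial enzymes (right). Crosses mark the same genes after spike-in scaling, where they sit lower by about the shift of all genes; Iars is the lowest cytosolic gene and Hars2 the highest mitochondrial one.

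Cytosolic enzymes were far more abundant than mitochondrial ones in both genotypes. Per kilobase of exon, the median cytosolic gene stood at 31.2 CPM in cKO and 35.9 CPM in WT, and the median mitochondrial gene at 3.11 CPM in cKO and 2.85 CPM in WT. A level of 10 CPM per kilobase or more was reached by 17 of the 21 cytosolic genes and by 4 of the 17 mitochondrial genes, in cKO as in WT. Qars, for glutamine, was the highest of all, with a mean of 153.5 CPM per kilobase in cKO and 220.6 in WT, and Rars, for arginine, followed at 137 in cKO and 131 in WT. At the other end of the cytosolic list Vars and Yars, for valine and tyrosine, lay below 1 CPM per kilobase in both genotypes. The mitochondrial enzymes led with Lars2 and Fars2, for leucine and phenylalanine. Summed over the 21 cytosolic genes, the level was 2619, 2687 and 2300.4 CPM in the cKO libraries and 2903, 2916 and 2722 CPM in the WT libraries. The 17 mitochondrial genes summed to 521, 549 and 655 CPM in cKO and to 591, 568 and 819 CPM in WT. Without Lars2, the most abundant of them, the sums were 308, 310.2 and 287 CPM in cKO and 336, 315 and 309 CPM in WT. The cytosolic sums did not overlap between genotypes, and the mitochondrial ones did, with or without Lars2. Iars and Qars, abundant genes that fell, were left out of a further sum after their values were seen, a choice that by itself narrows the gap. Without them the cytosolic sums were 2001, 2007 and 1803 CPM in cKO and 1977, 1868 and 1835 CPM in WT, which overlap.

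**Figure D2:**
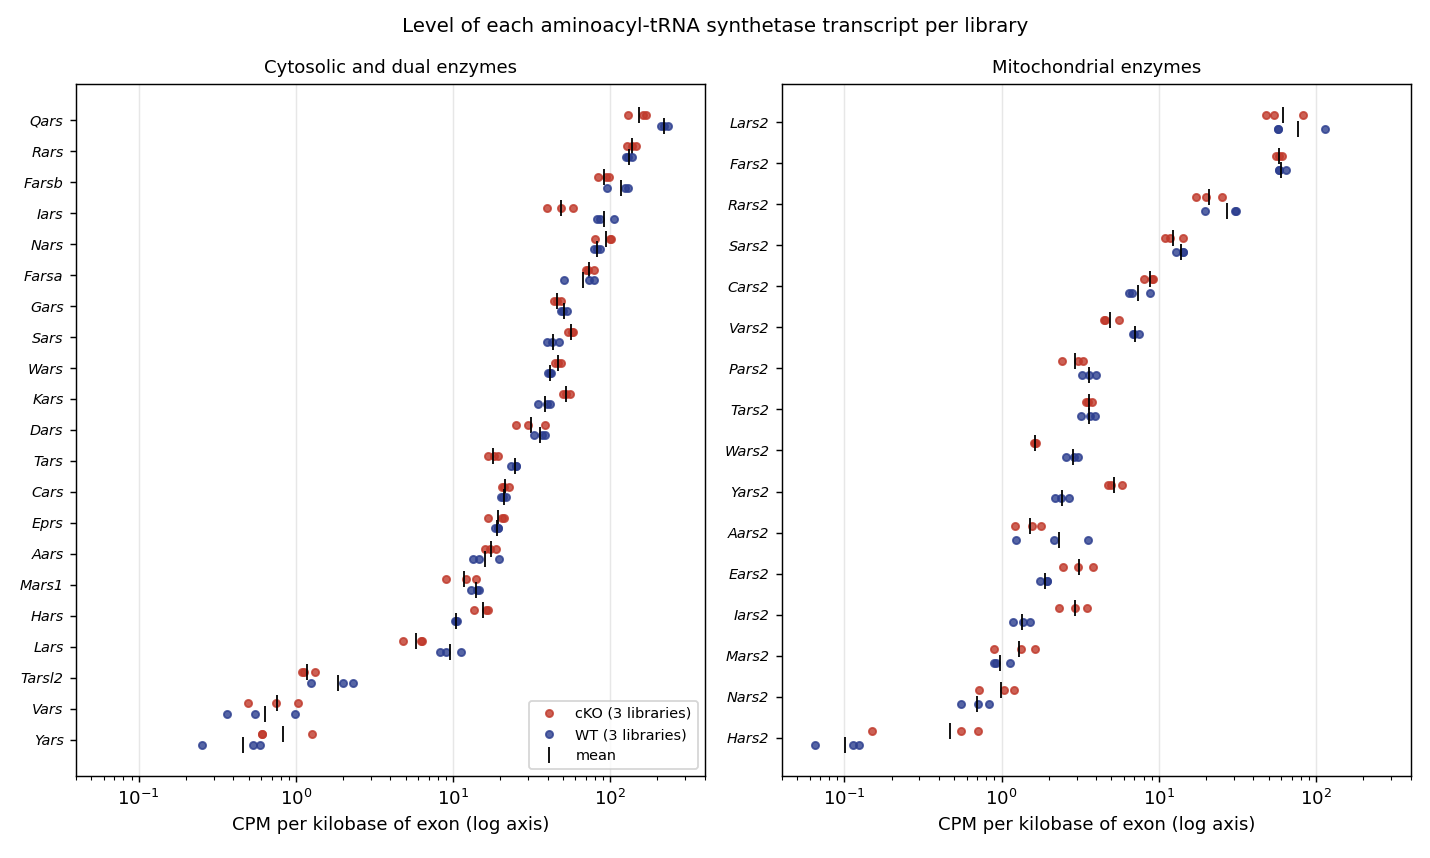
CPM per kilobase of exon (log axis) of the synthetase transcripts reported by name in each library, with cKO points above WT points in each row, ordered by the WT mean. The cytosolic rows (left) mostly sit above 10 and the mitochondrial rows (right) mostly below it; Iars, Qars and Lars are lower in every cKO library, and Yars2, Iars2 and Hars2 are higher.

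Among cytosolic enzymes, 4 fell and 3 rose, and 14 were not called. The calls are 33.3% of the 21 genes, against 40.2% of all tested genes. Iars, which charges tRNA with isoleucine, had the largest fall of the 38. It stood at 215, 254 and 175 CPM in the cKO libraries and at 376, 467 and 363 CPM in the WT libraries, so that every cKO library lay below every WT library. The log2 fold change was -0.91 ± 0.15 (SE), or 53.4% of WT (adjusted p = 0.000505, edgeR). In mm10 Iars occupies bases 49682130 to 49734267 of chromosome 13, plus strand. A processed pseudogene, Gm4849, matches 1656 bases of an Iars transcript at 96.0% identity in GENCODE M21, and the sources used here do not say how reads that fit both were counted.

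Lars, the leucine enzyme, stood at 24.96, 24.5 and 18.8 CPM in cKO and at 35.5, 43.8 and 32.6 CPM in WT. Again no cKO library reached the WT range, and the log2 fold change was -0.71 ± 0.18 (SE; adjusted p = 0.00727, edgeR). Qars, the glutamine enzyme, on chromosome 9 from 108508005 to 108515941, had 403, 426 and 323 CPM in cKO against 549, 581 and 525 CPM in WT. It fell to 69.6% of WT (adjusted p = 0.00473, edgeR), the fall with the most reads behind it, between 8972 and 15414 counts per library. These 3 calls held under every alternative tried. Tars, the threonine enzyme, had 50.8, 48.0 and 44.3 CPM in cKO and 62.0, 66.6 and 66.2 CPM in WT, a log2 fold change of -0.45 ± 0.13 (SE; adjusted p = 0.0181, edgeR). Its groups did not overlap, but the call was lost with library totals alone (adjusted p = 0.0618) and without cKO replicate 2, cKO replicate 3 or WT replicate 2 (adjusted p = 0.0511, 0.0608 and 0.067, edgeR).

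The cytosolic enzymes that rose were those for lysine, serine and histidine. Kars, for lysine, whose gene also makes the mitochondrial enzyme by alternative splicing, had 129, 117 and 122.7 CPM in cKO and 97.1, 93.2 and 81.7 CPM in WT. Sars, for serine, had 215, 199 and 211 CPM in cKO and 176, 146 and 159 CPM in WT. Hars, for histidine, had 32.5, 27.2 and 33.4 CPM in cKO and 20.9, 21.1 and 20.4 CPM in WT. In all 3 genes the lowest cKO library lay above the highest WT library. The log2 fold changes were 0.44 ± 0.12 for Kars, 0.38 ± 0.12 for Sars and 0.58 ± 0.16 for Hars (SE; adjusted p = 0.0130, 0.0206 and 0.0134 in that order, edgeR). None of the 3 calls held without cKO replicate 1 (adjusted p = 0.0567, 0.0754 and 0.0517), and that of Sars was also lost without WT replicate 2 (0.0735). After spike-in scaling the log2 fold changes were 0.04 for Kars, -0.02 for Sars, a change of direction, and 0.18 for Hars, none of them called.

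The other 14 cytosolic genes were not called, with log2 fold changes from -0.65 to 0.83 and adjusted p from 0.0568 to 0.874 (edgeR). Of these, 12 lay within 0.5 of 0. Their median standard error was 0.15. Farsb, the beta subunit of the phenylalanine enzyme, came nearest to a call. It had 238, 250.3 and 211 CPM in cKO and 318, 329 and 242 CPM in WT, a log2 fold change of -0.34 ± 0.13 (SE; adjusted p = 0.0568, edgeR), and the call was made without WT replicate 3 (adjusted p = 0.00920) or with the trend on exonic length removed (adjusted p = 0.0342). Its partner subunit Farsa had 128, 145 and 132 CPM in cKO and 144, 92.6 and 135 CPM in WT, so the groups overlapped. Of the exons of Farsb, 265 bases, 10.4% of the counted length, are shared with Sgpp2 on the opposite strand, a gene with a mean of 2.23 CPM in cKO and 4.82 CPM in WT. Rars, Eprs and Cars stayed within 0.1 of 0 on the log2 scale. The scarcest cytosolic genes were read from few counts: Vars had 94, 60 and 122 counts in cKO and 43, 50 and 82 in WT, and Yars had 91, 42 and 41 counts in cKO and 40, 28 and 12 in WT. In CPM all 3 cKO libraries of Yars lay above the WT libraries, with a log2 fold change of 0.83 ± 0.48 (SE), and those of Vars overlapped WT. Mars1, the methionine enzyme, had 41.3, 35.7 and 26.7 CPM in cKO and 43.3, 38.5 and 42.1 CPM in WT and was not called. It shares 68 exonic bases with Ddit3 on the opposite strand, which rose to a mean of 137.9 CPM in cKO, against 53.2 CPM in WT.

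Within the multisynthetase complex the members did not move together. Of its 8 enzymes, encoded by Dars, Eprs, Iars, Kars, Lars, Mars1, Qars and Rars, 3 fell and 1 rose. Of the 13 cytosolic genes outside it, 1 fell and 2 rose, or 23.1% called. Over all tested genes 40.2% were called, 20.1% in each direction, and the difference between the sets was not tested. The median log2 fold change was -0.23 inside the complex and 0.13 outside it, against 0.01 for all tested genes; with library totals alone the median inside was -0.12 and without cKO replicate 3 it was -0.08. Summed over the 8 enzymes, the level was 1284, 1368 and 1084 CPM in cKO and 1585, 1689.6 and 1486 CPM in WT, without overlap. Without Iars and Qars, again left out after their falls were seen, it was 666, 688 and 587 CPM in cKO and 659, 642 and 598 CPM in WT. Those groups overlapped. Of the 3 scaffold genes Eef1e1, the smallest scaffold protein, fell. It had 82.5, 104.9 and 93.6 CPM in cKO and 163, 152 and 146 CPM in WT, a log2 fold change of -0.71 ± 0.13 (SE; adjusted p = 0.000854, edgeR). The other scaffold genes were not called: Aimp2 had 82.4, 81.6 and 79.8 CPM in cKO and 74.4, 81.5 and 78.4 CPM in WT, and the log2 fold change of Aimp1 was 0.16 ± 0.16 (SE).

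**Figure D3:**
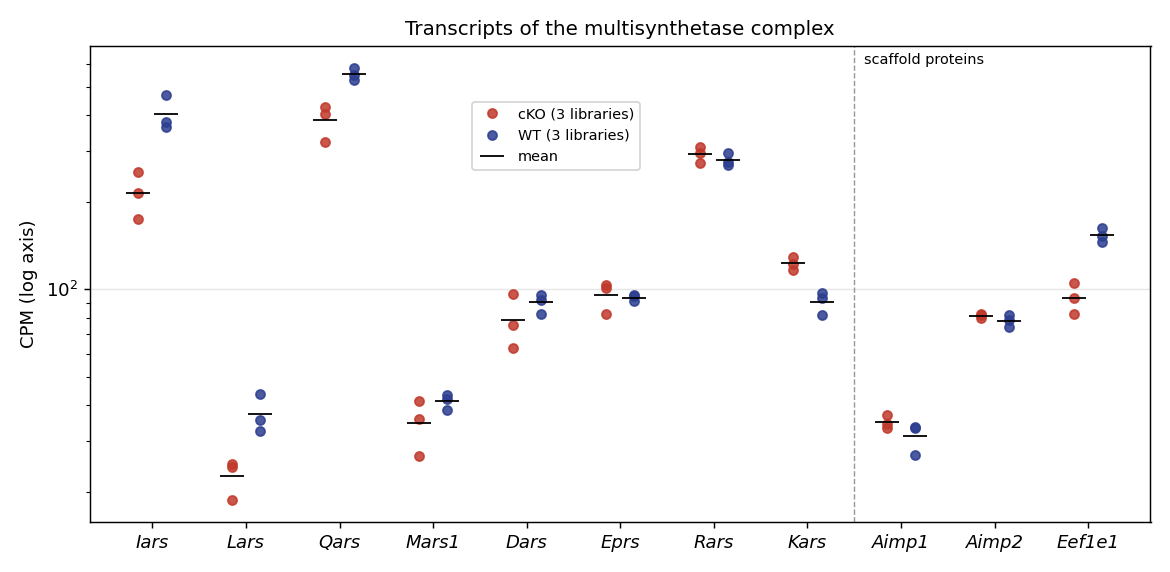
CPM (log axis) in each library of the 8 enzyme and 3 scaffold transcripts of the multisynthetase complex, cKO left of WT for each gene, with a bar at the mean of 3 libraries; values are not divided by length, so they compare genotypes and not genes. The cKO points of Iars, Lars, Qars and Eef1e1 lie below all WT points and those of Kars above them, while Eprs, Rars, Mars1 and Dars overlap.

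Among mitochondrial enzymes 4 rose, 3 fell and 10 were not called. The calls are 41.2% of the 17 genes, near the 40.2% of all tested genes, and the median log2 fold change was -0.04. Iars2, for isoleucine in mitochondria, had 12.5, 8.28 and 10.4 CPM in cKO and 5.38, 4.20 and 4.88 CPM in WT. It rose 2.16-fold (log2 1.11 ± 0.24, SE; adjusted p = 0.00324, edgeR) while its cytosolic counterpart fell. Iars2 occupies bases 185286642 to 185329401 of chromosome 1, minus strand, and shares 105 exonic bases, 2.95% of its counted length, with Rab3gap2 on the opposite strand. Smart-seq2 keeps no strand, so reads from that stretch cannot be told apart. The log2 fold change of Rab3gap2 was -0.61, and its part in the value of Iars2 was not tested.

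Yars2, for tyrosine, had 7.54, 7.85 and 9.28 CPM in cKO and 3.78, 4.29 and 3.46 CPM in WT. Every cKO library was above every WT library, and the fold was 2.14 (log2 1.10 ± 0.24, SE; adjusted p = 0.00340, edgeR). The calls of Iars2 and Yars2 held under every alternative except spike-in scaling, where their log2 fold changes were 0.74 and 0.68 (adjusted p = 0.0581 and 0.105). Hars2, for histidine, was near the limit of counting in WT, with 69, 14 and 50 counts in cKO and 6, 8 and 8 counts in WT. That is 2.30, 0.491 and 1.80 CPM in cKO and 0.214, 0.369 and 0.407 CPM in WT. Replicate 2 stood far below the other cKO libraries, close to the WT range. The fold of 4.66 is loosely fixed (log2 2.22 ± 0.67, SE; adjusted p = 0.0180, edgeR), and the call was lost in limma-voom (adjusted p = 0.0637) and without cKO replicate 1, cKO replicate 3 or WT replicate 1 (0.106, 0.0602 and 0.0713). Hars and Hars2 are read from opposite strands with 3 bases between their counted exons, share no exonic base, and both rose.

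Ears2, the mitochondrial glutamate enzyme, had 24.9, 16.0 and 19.96 CPM in cKO and 12.6, 11.4 and 12.8 CPM in WT. It rose 1.65-fold (adjusted p = 0.0129, edgeR), a call lost without cKO replicate 1 (adjusted p = 0.0740) and after spike-in scaling (log2 0.36). In mitochondria EARS2 also loads glutamate onto the glutamine tRNA, and an amidotransferase encoded by Qrsl1, Gatb and Gatc turns it into glutamine. Of those subunits Qrsl1 rose, with 9.54, 4.77 and 6.87 CPM in cKO and 3.46, 3.55 and 3.15 CPM in WT (adjusted p = 0.0121, edgeR). Gatb and Gatc, named after their values were seen, were not called, with log2 fold changes of 0.11 and -0.16.

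The mitochondrial enzymes that fell included those for tryptophan and valine. Wars2 had 7.21, 7.08 and 7.26 CPM in cKO and 11.3, 13.5 and 12.7 CPM in WT. Vars2 had 20.1, 24.8 and 19.96 CPM in cKO and 30.8, 30.3 and 33.1 CPM in WT. No cKO library of these genes reached the WT range. The log2 fold changes were -0.80 ± 0.21 for Wars2 and -0.54 ± 0.17 for Vars2 (SE; adjusted p = 0.00790 and 0.0201 in that order, edgeR). Wars2 kept its call under every alternative. Vars2 lost it without cKO replicate 1, cKO replicate 3 or WT replicate 1 (adjusted p = 0.0793, 0.0688 and 0.0630) and with library totals alone (0.0520). The 10 mitochondrial genes not called had log2 fold changes from -0.61 to 0.48, with a median standard error of 0.21, and 9 of them lay within 0.5 of 0. Fars2 and Tars2 stayed within 0.1 of 0.

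Of the 4 genes for serine and leucine enzymes, whose tRNAs NAT10 acetylates, 1 rose and 1 fell. Over all tested genes 20.1% were called in each direction, and a link of these 2 calls to the acetylation was not tested. Cytosolic Sars was higher and cytosolic Lars lower in cKO, as given above. Neither mitochondrial gene was called. Sars2 had 22.6, 27.1 and 20.9 CPM in cKO and 27.3, 24.7 and 27.3 CPM in WT. Lars2 had 213, 239 and 367 CPM in cKO and 255, 253 and 510.1 CPM in WT. In each genotype replicate 3 stood well above the other libraries, and the log2 fold change of Lars2 was -0.31 ± 0.25 (SE).

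Set against each other within a library, cytosolic and mitochondrial enzymes for the same amino acid shifted most for isoleucine. The ratio of counts per kilobase needs no scaling between libraries. It was formed for 14 amino acids whose cytosolic and mitochondrial gene names differ only in a final digit. Tarsl2, a further cytosolic threonine gene, was therefore not part of the threonine pair. The cytosolic transcript exceeded the mitochondrial one in 11 of these pairs in WT, the exceptions being leucine, tyrosine and valine. The log2 ratio of Iars to Iars2 was 3.80, 4.64 and 3.76 in cKO and 5.82, 6.49 and 5.91 in WT. On the linear scale its geometric mean was 16.7 in cKO and 67.4 in WT, a log2 difference of -2.01. For tryptophan the difference went the other way: Wars to Wars2 had a log2 ratio of 4.83, 4.91 and 4.74 in cKO and 4.01, 3.76 and 3.80 in WT, a difference of 0.97. Groups also did not overlap for Tars to Tars2 (difference -0.45) and Sars to Sars2 (0.56), and they overlapped for 9 of the 14 pairs. For single genes in CPM, 52.0% of all tested genes did not overlap. No such share was formed for ratios of other genes. In an exact two-sided permutation test over the 20 assignments of 6 libraries the pairs of isoleucine, tryptophan, threonine and serine each had p = 0.1, the smallest that 3 against 3 libraries allow, and 0.28 after Benjamini-Hochberg adjustment over the 14 pairs. The sign was split, with 8 differences below 0 and 6 above.

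**Figure D4:**
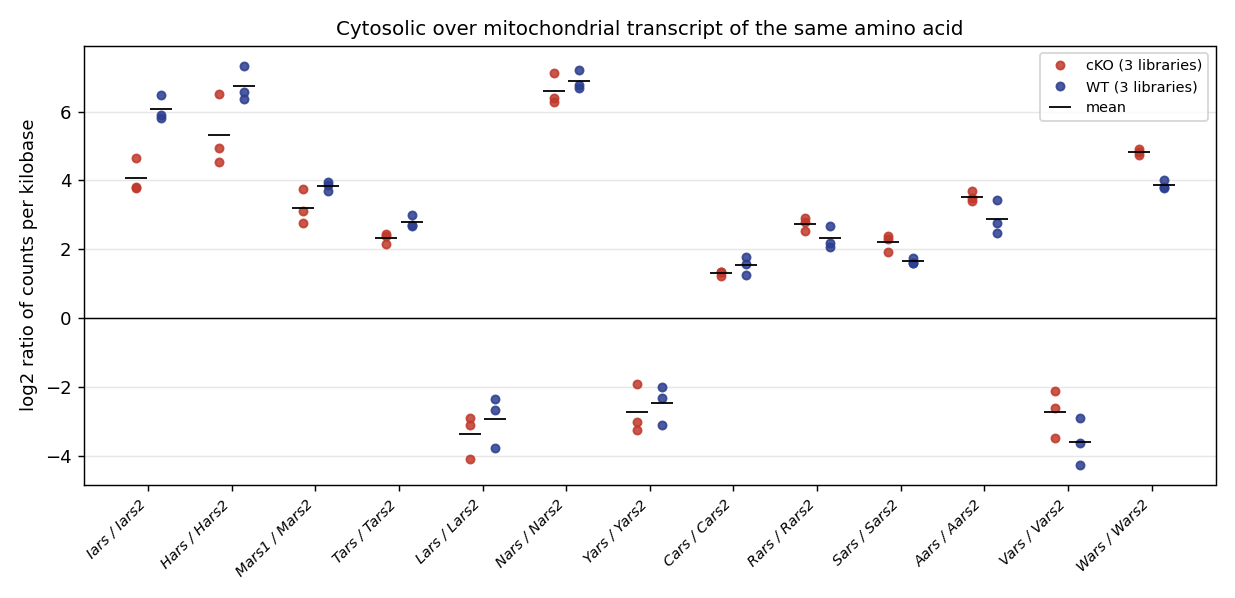
Log2 ratio of counts per kilobase of exon, cytosolic over mitochondrial transcript of the same amino acid, in each library, for the pairs reported by name, with cKO left of WT and a bar at the mean of 3 libraries. Pairs are ordered by the difference between genotypes, from Iars over Iars2 (-2.01) to Wars over Wars2 (0.97); leucine, tyrosine and valine lie below 0.

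The sequences just upstream of the start sites are shown for the isoleucine pair, since its members moved in opposite directions, and for Aars, Gars and Tars, the genes whose upstream sequence holds a match to the element that ATF4 binds with C/EBP factors. ATF4 is the transcription factor of the amino acid response, and many cytosolic synthetase genes are known among its targets. Each sequence is the 250 bases before the transcript start in RefSeq, build GRCm38.p6, written 5′ to 3′ on the strand of the gene. Capitals mark matches on either strand to TGATGNAA (the ATF4 and C/EBP element), CACGTG (an E-box, bound by MYC and related factors) or the NRF1 element, which reads GCGCA, then any base, then GCGC (NRF1 regulates genes for mitochondria).

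Iars, chr13:49681880-49682129, plus strand: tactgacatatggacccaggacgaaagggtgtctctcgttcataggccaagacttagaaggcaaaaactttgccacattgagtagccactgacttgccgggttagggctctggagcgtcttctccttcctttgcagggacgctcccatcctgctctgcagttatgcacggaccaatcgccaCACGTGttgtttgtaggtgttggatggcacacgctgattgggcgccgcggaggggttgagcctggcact

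Iars2, chr1:185329402-185329651, minus strand: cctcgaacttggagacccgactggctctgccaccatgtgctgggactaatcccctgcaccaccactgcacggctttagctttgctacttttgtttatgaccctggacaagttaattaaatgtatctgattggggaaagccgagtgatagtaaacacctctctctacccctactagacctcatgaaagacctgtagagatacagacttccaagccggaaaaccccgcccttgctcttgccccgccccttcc

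Aars, chr8:111033592-111033841, plus strand: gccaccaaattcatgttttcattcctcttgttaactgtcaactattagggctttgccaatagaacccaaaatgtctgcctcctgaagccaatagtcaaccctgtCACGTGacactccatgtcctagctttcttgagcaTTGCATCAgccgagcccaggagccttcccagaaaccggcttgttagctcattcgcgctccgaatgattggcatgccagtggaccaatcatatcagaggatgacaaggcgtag

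Gars, chr6:55037751-55038000, plus strand: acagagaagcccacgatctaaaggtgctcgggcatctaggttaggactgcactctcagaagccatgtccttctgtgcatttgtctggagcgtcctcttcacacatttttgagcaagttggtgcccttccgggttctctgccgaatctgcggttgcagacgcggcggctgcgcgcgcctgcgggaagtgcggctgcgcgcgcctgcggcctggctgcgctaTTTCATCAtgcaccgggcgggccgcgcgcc

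Tars, chr15:11399659-11399908, minus strand: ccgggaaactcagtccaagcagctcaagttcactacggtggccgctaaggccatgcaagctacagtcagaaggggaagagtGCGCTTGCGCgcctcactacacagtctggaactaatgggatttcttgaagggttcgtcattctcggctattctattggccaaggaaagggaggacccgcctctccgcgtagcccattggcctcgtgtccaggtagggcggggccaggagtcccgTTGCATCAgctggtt

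A promoter was matched for 28 of the 38 members. TGATGNAA was found upstream of 3 of them, against 3.45% of the 32851 promoters in the table. These were Aars (starting at -112 from the transcript start), Gars (-30) and Tars (-15). CACGTG was found upstream of 3, namely Aars, Farsb and Iars, against 6.02% of all promoters, and the NRF1 element upstream of Kars and Tars, against 3.74%. In Iars the E-box starts at -69, and none of the 3 motifs is in the bases printed for Iars2. These matches depend on the window: in the full 300 bases of each RefSeq entry, which run on past the transcript start, TGATGNAA is in 5 of the 28 members, with Iars and Yars added (3.97% of all promoters), and Iars2 holds the NRF1 element (4.603% of all). Of these 5 genes, Tars and Iars fell, with log2 fold changes of -0.45 and -0.91, and Aars (0.13), Gars (-0.13) and Yars (0.83) were not called. A match is a description of letters and not a site.

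Genes of related steps in the use of tRNA, and ATF4 targets counted with them, moved in both directions as well. In 6 lists of related genes, 83 of 84 symbols were in the table and 77 were tested; 18 rose and 8 fell, 33.8% of those tested against 40.2% of all genes. After spike-in scaling 6 were higher and 20 lower. Of 29 tested ATF4 targets outside the synthetases 5 rose and 3 fell, with a median log2 fold change of 0.03. Ddit3, which encodes the transcription factor CHOP, rose 2.59-fold. Trib3, a pseudokinase gene, rose 5.15-fold from a low level (log2 2.36 ± 0.45, SE). It had 7.51, 2.31 and 4.21 CPM in cKO and 0.78, 0.83 and 1.12 CPM in WT. Slc3a2, the heavy chain of amino acid transporters, rose 1.65-fold, while Slc7a11, the cystine transporter gene, fell to 66.5% of WT. Atf4 itself, named here after its values were seen, was not called, with means of 353 CPM in cKO and 345 CPM in WT.

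Among 27 tested genes that shape, splice or export tRNA, 8 rose and 3 fell, a share of 40.7% that is near the 40.2% of all tested genes. Hsd17b10, a subunit of mitochondrial RNase P, had 43.0, 32.2 and 45.1 CPM in cKO and 9.45, 9.87 and 7.38 CPM in WT, a log2 fold change of 2.17 ± 0.20 (SE; adjusted p = 1.22e-05, edgeR). Its partner subunits, named after their values were seen, went both ways: Trmt10c had a log2 fold change of 0.84 and Prorp, the nuclease, one of -0.72, both called. Clp1, an RNA kinase of the tRNA splicing complex, rose 4.12-fold and Xpot, the tRNA exporter, 3.39-fold, and Pop1, the largest protein of nuclear RNase P, fell to 43.7% of WT. Of 4 genes for free-standing editing proteins that clear mischarged tRNA, Dtd1 and Prorsd1 rose, 1.79-fold and 1.67-fold. Of 8 genes that convert the amino acid on the tRNA or handle selenocysteine, Qrsl1 rose and Sepsecs, which makes selenocysteine on its tRNA, fell to 57.5% of WT. Of 6 genes for the factors that carry charged tRNA to the ribosome and the exchange factors that recharge them with GTP, Eef1b2 and Eef1g, both subunits of the exchange complex, rose, 2.14-fold and 1.70-fold, and the other 4 were not called.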

How the data were processed

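The deposited table holds raw counts per gene from the authors for each of the 6 libraries, with exonic lengths, in the layout of featureCounts per the file headers. Per the submitters' processing notes, the tools named for the reads are Trim Galore 0.6.7, STAR 2.7.10a and featureCounts, with mm10 as the build. A second deposited table from the authors gives, as fractions, the reads mapped and those from ERCC spike-in RNA, with the denominator not stated. Settings for multi-mapping, overlapping and stranded reads are not given in the sources, and without molecular identifiers PCR copies count as reads.

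Genes passing filterByExpr (minimum count 10) were tested for genotype alone with edgeR 4.0.16 in R 4.3.3, using TMM factors, the two-sided quasi-likelihood test and Benjamini-Hochberg adjustment over all 14114 genes, with a threshold of 0.05. The standard error is the log2 fold change over the square root of F. The fit was tested on simulated data. Alternatives were DESeq2 1.42.0, limma 3.58.1 (voom), median-ratio factors, library totals alone, spike-in scaling (mapped less ERCC fraction, over ERCC fraction), no filter, removal of a length trend with mgcv 1.9.3, a replicate block and leaving out each library. Pseudogene matches came from GENCODE M21 transcripts.

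The members and lists were chosen with earlier results of these data known. Any synthetase gene could be named. From each related list came at most 4 called genes, ranked by p, or, with fewer than 2 called, the 2 of highest level; exceptions are stated. The values of 1 synthetase gene are not reported here; it stays in the counts and medians. The sums without Iars and Qars were chosen after seeing the data.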

Additional observations from a re-analysis of the deposited data

How the results depend on the processing

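Of 14 called synthetase genes, Iars, Lars, Qars and Wars2 kept their call and direction under all 14 alternatives. Of 24 genes not called, 15 stayed so throughout. Spike-in scaling moved the most. It gave 1183 genes higher and 4831 lower over all genes, with a median log2 fold change of -0.39. For the synthetase genes it gave 1 higher and 15 lower with a median of -0.38, for the cytosolic ones 0 and 9 with -0.36, for the mitochondrial ones 1 and 6 with -0.45, and for the related lists 6 and 20. The change of Sars turned to -0.0152. With library totals alone the median of all genes was 0.12, and with no filter on low counts it was 0.0363. Removing the trend on exonic length left 13 related genes lower, against 8.

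Leaving out 1 library at a time gave 2 to 7 synthetase genes higher and 4 to 10 lower. The lowest values came without cKO replicate 1 and without cKO replicate 3. For cytosolic genes 0 to 3 were higher and 3 to 6 lower, and for mitochondrial genes 2 to 4 were higher and 1 to 4 lower. The median of all genes ran from -0.0034 to 0.0311. Pairs whose ratio was higher in every cKO library numbered 3 to 5, and those lower 2 to 5. The cause of these changes was not tested.

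With the replicate block 7 synthetase genes were higher and 8 lower, Farsb joining the falls (log2 -0.34, adjusted p = 0.0210). Over all genes the block gave 3089 higher and 3110 lower, against 2836 and 2838 without it. Deviations of same-numbered libraries correlated at -0.02, 0.06 and 0.11, and those of differently numbered libraries at -0.11 to 0.06. Not every library correlated best with its own number. Whether same-numbered libraries belong together cannot be told from so few libraries. Depth limits Hars2, Yars and Vars most, with at most 122 counts in any library.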
